A study of Arabidopsis thaliana with 12 samples.

Results

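The response of rbm25-1 seedlings to abscisic acid (ABA) was read by setting rbm25-1 seedlings sprayed with ABA (3 samples) against untreated rbm25-1 seedlings (3 samples), 6 of the 12 samples of the series. Beside it stands the same contrast in wild type (Col-0), ABA-sprayed against untreated, again with 3 samples in each group. All seedlings came from seed stratified for 4 days, were of the Col-0 ecotype and grew on agar plates for 2 weeks in long days, and polyadenylated RNA was sequenced. The ABA groups were sprayed at 0.1 mM and harvested 6 hours later, whereas the labels give "No treatment" for the untreated groups and mention no mock spray. No deposited table holds this contrast, so the authors' group value of sprayed rbm25-1 was joined to that of untreated rbm25-1, locus by locus and splicing event by splicing event. Both values existed for 18603 loci and 7547 splicing events.

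ABA is the hormone that plants accumulate in drought and in maturing seeds. PYR/PYL receptors that have bound it inhibit the clade A PP2C phosphatases, which frees SnRK2 kinases to activate bZIP factors of the ABF and ABI5 type, and these bind the ABA-responsive element, with the core ACGTG, before many stress genes. RBM25 is an RNA-binding protein that works with the spliceosome, and intron retention and other alternative splicing are known to alter several components of the ABA pathway, among them the phosphatase HAB1.

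Each deposited value is 1 number per group. Gene values are in FPKM, which corrects fragment counts for transcript length and for library size, and splicing values are the percent spliced in (PSI), the share of the transcripts that carry the inclusion form. There is no value per sample and no read total, so the depth is unknown, no SD stands beside a value and no test was made of this contrast. The labels do not say whether the 3 samples of a group were separate cultures. Adjusted p-values below, written q, are the authors', from their deposited tables of the other comparisons. Since RNA came from seedlings and not from sorted cells, fewer cells of a type and less RNA per cell cannot be told apart.

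The most ABA-responsive genes of rbm25-1 are introduced by the DNA before them, since 8 of the 10 genes with the highest ratios, among loci with at least 10 FPKM in the higher and 0.5 FPKM in the lower rbm25-1 group, carry the ABA-responsive core within 250 bases before the annotated gene start. The 4 stretches below come from RefSeq's TAIR10.1 genome, are written 5′ to 3′ on the strand of the gene, and have each ACGTG or its reverse complement CACGT in capitals. A palindromic CACGTG counts once on each strand. They lie at chr3:511970-512219 (plus strand) for AT3G02480, chr3:790694-790943 (minus strand) for AT3G03341, chr1:19619474-19619723 (plus strand) for LEA7 and chr2:14146556-14146805 (minus strand) for RD20.
AT3G02480: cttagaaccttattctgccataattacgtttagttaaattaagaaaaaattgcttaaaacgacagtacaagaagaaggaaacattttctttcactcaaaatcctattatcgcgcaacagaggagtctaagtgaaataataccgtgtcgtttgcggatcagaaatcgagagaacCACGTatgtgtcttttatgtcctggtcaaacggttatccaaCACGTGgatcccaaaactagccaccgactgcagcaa
AT3G03341: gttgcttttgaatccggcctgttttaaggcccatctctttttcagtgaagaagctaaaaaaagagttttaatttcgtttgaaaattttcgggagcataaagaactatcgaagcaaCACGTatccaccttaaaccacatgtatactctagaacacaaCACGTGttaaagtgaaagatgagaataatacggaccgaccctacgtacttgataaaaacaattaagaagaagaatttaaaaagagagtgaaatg
LEA7: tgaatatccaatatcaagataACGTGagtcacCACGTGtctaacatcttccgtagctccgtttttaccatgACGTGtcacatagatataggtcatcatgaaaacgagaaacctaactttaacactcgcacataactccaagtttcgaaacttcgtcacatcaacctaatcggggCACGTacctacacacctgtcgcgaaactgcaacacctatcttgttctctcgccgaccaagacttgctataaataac
RD20: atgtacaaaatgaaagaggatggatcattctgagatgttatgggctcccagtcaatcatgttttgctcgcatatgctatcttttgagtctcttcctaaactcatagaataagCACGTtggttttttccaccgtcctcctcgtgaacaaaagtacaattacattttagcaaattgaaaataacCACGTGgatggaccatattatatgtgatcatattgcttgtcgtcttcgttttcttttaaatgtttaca

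LEA7 holds 5 matches, and AT3G02480, AT3G03341 and RD20 hold 3 each. HAI1 and AT1G09500, also among the 10, have no such letters in this window. Over all 27443 protein-coding genes of the annotation, 22.9% of windows of the same length hold the core on either strand. The share was 33.7% (670 of 1987) among genes at least 2-fold higher with ABA in rbm25-1 and 50% (63 of 126) among those at least 16-fold higher, against 23.6% (432 of 1834) among genes at least 2-fold lower. A match is a stretch of letters and not a measured binding site.

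RBM25 (AT1G60200) was low in both rbm25-1 groups, at 1.46 FPKM with ABA and 2.55 FPKM untreated, against 9.26 FPKM with ABA and 9.15 FPKM untreated in wild type. The mutant thus held 15.8% of the wild-type level with ABA and 27.9% without it (q = 0.000132 in each of the authors' deposited tables of the genotypes), and in wild type the log2 ratio of ABA over untreated was 0.02 (q = 0.938 in the authors' deposited table). The gene lies on the minus strand at chr1:22200694-22205400 with up to 7 exons in a transcript. ULP1D (AT1G60220), a gene for a SUMO protease that begins upstream of it at chr1:22208089-22212171 on the plus strand, was low in the same groups: 1.00 and 2.23 FPKM in rbm25-1 with ABA and untreated, against 9.12 and 7.87 FPKM in wild type. What the rbm25-1 allele changes in the genome, and where, is not stated in the sources used here. Whether the low ULP1D level bears on any result below was not tested.

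After leaving out 3 loci at 0 in an rbm25-1 group and 556 whose higher rbm25-1 value was under 1 FPKM, with 2 loci in both counts, 18046 loci gave a log2 ratio of ABA over untreated. In rbm25-1, 2130 loci were raised at least 2-fold (11.8%) and 2030 were lowered at least 2-fold (11.2%). In wild type, the same rule gave 2111 raised (11.7%) and 2081 lowered (11.5%) of 18064 loci. "Raised" and "lowered" below always mean a group value at least 2-fold higher or lower with ABA than untreated. The median log2 ratio over all loci was -0.02 in rbm25-1 and -0.06 in wild type. FPKM is corrected for library size, so these medians cannot show whether the total RNA level changed. The 1000 loci with the highest levels had medians of -0.19 in rbm25-1 and -0.15 in wild type. Centred on those loci, 2663 were raised and 1538 lowered in rbm25-1, against 2514 and 1631 in wild type, so the balance of raised and lowered loci depends on the scaling.

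Most loci that moved in rbm25-1 also moved in wild type. Of 17897 loci that passed the filter in both genotypes, 1746 were raised in both, which is 82.8% of those raised in rbm25-1 and 83.6% of those raised in wild type. Lowered in both were 1490, or 74.0% of the rbm25-1 loci and 72.3% of the wild-type loci. The 362 loci past 2-fold upward in rbm25-1 alone had a median log2 ratio of 0.79 in wild type, and 354 of them had the same sign there. The 524 lowered past 2-fold in rbm25-1 alone had a wild-type median of -0.75, with the same sign in 507. Across loci the log2 ratios correlated with Pearson's r of 0.92 and Spearman's rho of 0.88, a description over genes that are not independent replicates.

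The size of the response was also close to that of wild type. To favour neither genotype, loci were picked by the mean of both log2 ratios. The 2063 loci raised by that measure had a median log2 ratio of 1.71 in rbm25-1 and 1.73 in wild type, and 48.7% of them had the larger ratio in rbm25-1. The 1962 lowered loci had medians of -1.5 in rbm25-1 and -1.48 in wild type, with 52.2% larger in size in rbm25-1. The plot of both responses shows this as a narrow band along the diagonal.

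**Figure D1:**
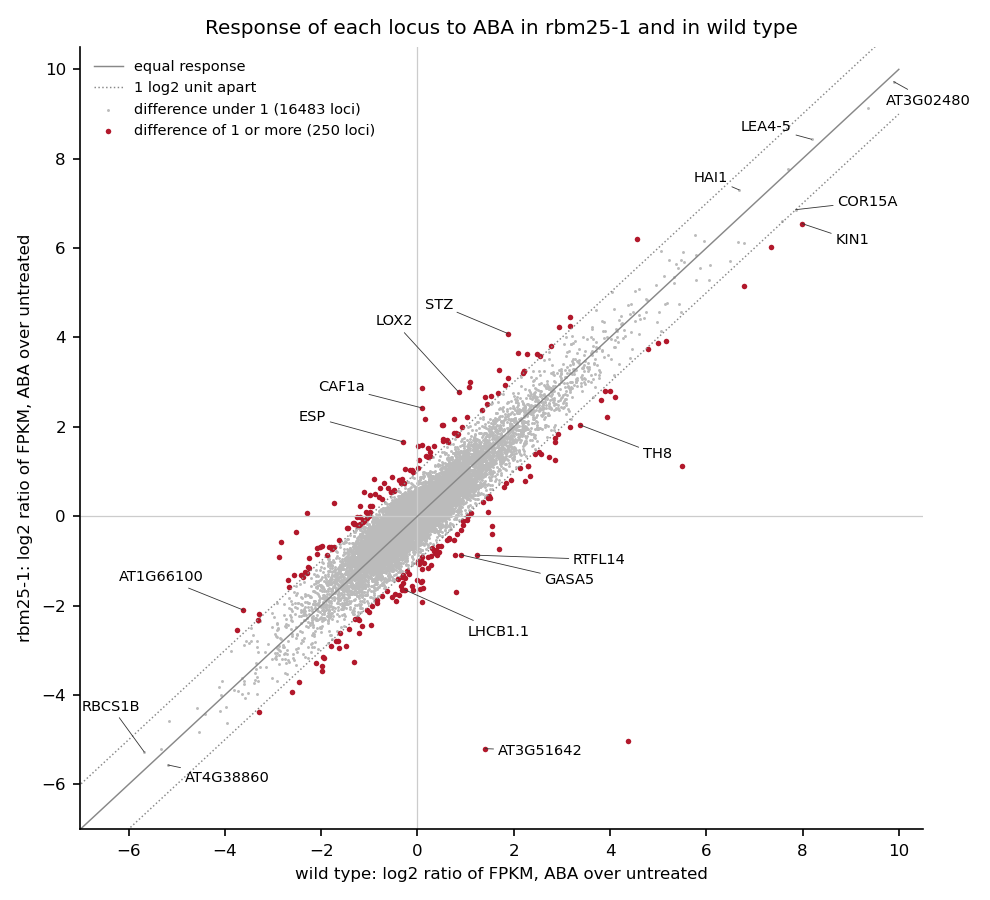
Log2 ratio of FPKM, ABA over untreated, of each locus in rbm25-1 (vertical axis) and in wild type (horizontal axis), for the 16733 loci with all 4 group values at least 1 FPKM. Grey points lie within 1 log2 unit of the diagonal (16483 loci) and red points outside it; the ABA marker genes sit at the upper right in both genotypes, and AT3G51642 lies far below the diagonal.

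The classical ABA-inducible stress proteins were raised without exception in rbm25-1, 14 of 14 measured members, as in wild type (14 of 14). Their median log2 ratio was 5.64 in rbm25-1 and 5.32 in wild type, against the medians near 0 over all loci. AT3G02480, a small LEA-type protein, had the highest ratio of the rbm25-1 response, at 5224 FPKM with ABA and 6.17 FPKM untreated, against 4959 and 5.21 FPKM in wild type. LEA7, a late embryogenesis abundant protein, stood at 750.4 FPKM with ABA and 1.33 FPKM untreated in rbm25-1, and at 861 and 1.31 FPKM in wild type. Both log2 ratios of these genes, 9.73 and 9.15 in rbm25-1, stood close to the wild-type ones (9.89 and 9.36).

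LEA4-5, of the same protein class, reached 404 FPKM with ABA in rbm25-1 against 1.17 FPKM untreated (log2 ratio 8.43, and 8.19 in wild type). RD20, a caleosin of lipid droplets, reached 306 FPKM with ABA against 1.41 FPKM untreated (7.76, and 7.69 in wild type). AT3G03341 reached 436 FPKM with ABA against 0.643 FPKM untreated (9.41, and 9.56 in wild type). These genes were high with ABA and low untreated in both genotypes. RD29A, a desiccation-response gene used as an ABA reporter, had log2 ratios of 5.55 in rbm25-1 and 5.42 in wild type, and the dehydrin RAB18 (AT5G66400) of 5.73 and 5.22.

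The stress protein genes with the lowest ratios relative to wild type, picked after their values were seen, include COR15A, COR15B and KIN1, which are also cold-induced; RD29A, above, is cold-induced too and did not share this order. COR15A, a protein of the chloroplast stroma that protects membranes on freezing, had 705 FPKM with ABA and 6.07 FPKM untreated in rbm25-1, against 1570 FPKM with ABA and 6.78 FPKM untreated in wild type. Untreated seedlings of the genotypes were alike and the sprayed mutant held 44.9% of the wild-type level (q = 0.000132 in the authors' deposited table). Its paralog COR15B had 28.2 and 8.44 FPKM in rbm25-1, against 62.0 and 8.58 FPKM in wild type, and the log2 ratios were 1.74 and 2.85. KIN1, a small hydrophilic cold- and ABA-induced protein, had 1213 and 12.9 FPKM in rbm25-1, against 1640 and 6.45 FPKM in wild type, which makes its log2 ratio 1.44 lower in rbm25-1. KIN2 (AT5G15970), which lies next to KIN1 and is nearly identical to it, had log2 ratios of 6.11 and 6.79, and reads can be shared between the copies. COR47 and ERD10, dehydrins that also respond to cold, showed the same order with smaller gaps: 2.09 against 2.38 and 3.10 against 3.46. ADH1, of the same list, had 3.02 against 3.54. In 6 of the 14 measured members, RD29A and RAB18 among them, the ratio was instead higher in rbm25-1.

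Several strong ABA genes are listed in the authors' deposited table of the sprayed genotypes and not in that of the untreated ones. Of the 597 such loci, 42 had at least 10 FPKM in sprayed rbm25-1. LTP4, a lipid transfer protein, stood highest, at 1754 FPKM in rbm25-1 and 1635 FPKM in wild type with ABA. RD29B, whose promoter is the textbook ABA reporter, had 161 and 139 FPKM. EM6, a late embryo protein, had 82.9 and 76.7 FPKM. The 46 loci of this kind with at least 10 FPKM in either genotype had a median log2 ratio of rbm25-1 over wild type of 0.05, and 7 of them were at least 2-fold apart. BGLU24, a beta-glucosidase, was at 65.9 FPKM in rbm25-1 and 109 FPKM in wild type with ABA (q = 0.000132 in the authors' deposited table). No fold of the mutant response can be given for these loci.

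Genes that make and break down ABA were mostly raised, 8 of 10 measured in rbm25-1 (median log2 ratio 1.98) and 7 of 10 in wild type (1.31). The 3 measured CYP707A genes, which encode the ABA 8′-hydroxylases that inactivate the hormone, led the list. CYP707A1 had 72.5 FPKM with ABA and 1.99 FPKM untreated in rbm25-1, against 66.8 and 2.15 FPKM in wild type. CYP707A3 and CYP707A2 had log2 ratios of 3.99 and 3.69 in rbm25-1 and of 3.88 and 3.70 in wild type. AAO3, the aldehyde oxidase of the last step of synthesis, had 2.44 and 2.6. All of these had log2 ratios of the same order in both genotypes. NCED3, the rate-limiting dioxygenase of stress-induced synthesis, had log2 ratios of 2.1 in rbm25-1 and 1.26 in wild type. BGLU18, a beta-glucosidase that releases ABA from its glucose ester, had 106 and 29.4 FPKM in rbm25-1, against 62.6 and 37.0 FPKM in wild type, a log2 ratio 1.09 higher in rbm25-1.

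The receptors moved the other way. Of 8 measured PYR/PYL genes, 5 were lowered in rbm25-1 and 4 in wild type, with medians of -1.56 and -1.03. PYL4 had 3.53 FPKM with ABA and 85.1 FPKM untreated in rbm25-1, against 2.64 and 94.3 FPKM in wild type. PYL5 had log2 ratios of -3.09 and -2.72, and PYR1 of -2.1 and -1.91. PYL8, a receptor with known roles in roots, had 64.6 and 284.7 FPKM in rbm25-1, against 113 and 254 FPKM in wild type. Its log2 ratio was -2.14 in rbm25-1 and -1.17 in wild type, the widest gap among the receptors. PYL6 was listed untreated only, at 14.5 FPKM in rbm25-1 and 17.1 FPKM in wild type.

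All 6 measured clade A PP2C genes were raised in both genotypes, with median log2 ratios of 3.18 in rbm25-1 and 3.19 in wild type. HAI1, one of the highly ABA-induced phosphatases, had 493 FPKM with ABA and 3.13 FPKM untreated in rbm25-1, against 421 and 4.1 FPKM in wild type. ABI2 had log2 ratios of 4.48 and 4.24, PP2CA of 3.46 and 3.21, and ABI1 of 2.9 and 2.73. HAB1 had 2.85 and 3.17, on levels of 48.3 FPKM with ABA and 6.71 FPKM untreated in rbm25-1. HAI2 and HAI3 were listed with ABA only, at 39.3 and 30.1 FPKM in rbm25-1 and at 40 and 35.9 FPKM in wild type.

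Of the 10 SnRK2 kinases, 2 were raised and 1 lowered in rbm25-1, and 3 were raised and 1 lowered in wild type. Over all loci, 11.8% were raised and 11.2% lowered in rbm25-1, and 11.7% and 11.5% in wild type. Counts over 10 genes do not set the kinases apart from these shares. In 9 of the 10 kinases the log2 ratio was lower in rbm25-1, with medians of 0.18 and 0.50. SNRK2.6, the guard-cell kinase also called OST1, had 24.7 and 9.63 FPKM in rbm25-1, against 30.4 and 8.06 FPKM in wild type. SNRK2.7 had log2 ratios of 1.02 and 1.96, SNRK2.8 of -1.40 and -1.09, and SNRK2.5 of -0.96 and -0.62. No kinase of the list differed by 1 log2 unit between the responses.

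Among 20 measured transcription factors of the ABA response, 16 were raised in rbm25-1 and 15 in wild type, and none was lowered in either. The medians were 2.69 and 2.55. NAC019 had 246 FPKM with ABA and 3.43 FPKM untreated in rbm25-1, against 251 and 4.05 FPKM in wild type. HB-7, a homeodomain factor that restrains growth in drought, had 294 and 18 FPKM, against 294 and 14.7 FPKM. MYB2 had log2 ratios of 4.01 and 3.93, and WRKY40 of 3.91 and 3.28. The bZIP factor genes ABF2, ABF3 and ABI5 had 1.97, 2.36 and 2.84 in rbm25-1, against 2.03, 2.07 and 2.73 in wild type. None of the 20 differed by 1 log2 unit between the genotypes.

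Surface-barrier genes were raised as well, 13 of 14 wax and suberin members in each genotype, with medians of 1.74 in rbm25-1 and 2.28 in wild type. CER1, which is needed for alkane synthesis, had log2 ratios of 3.79 and 4.1, KCS2 of 3.77 and 3.77, FAR1 (AT5G22500) of 3.32 and 3.55 and ASFT of 3.15 and 3.42. FAR4, a reductase that makes the fatty alcohols of suberin, had 8.37 and 3.85 FPKM in rbm25-1, against 24.4 and 5 FPKM in wild type, so that its log2 ratio was 1.17 lower in rbm25-1. P5CS1, the enzyme that limits proline synthesis, was the 1 raised osmolyte gene of 6, at 80.1 and 19 FPKM in rbm25-1 against 81.0 and 16.5 FPKM in wild type. Within that list RS5 had 0.71 and 0.53, ERD5 had -0.69 and -1.09, and GolS1 had 0.51 and -0.23.

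**Figure D2:**
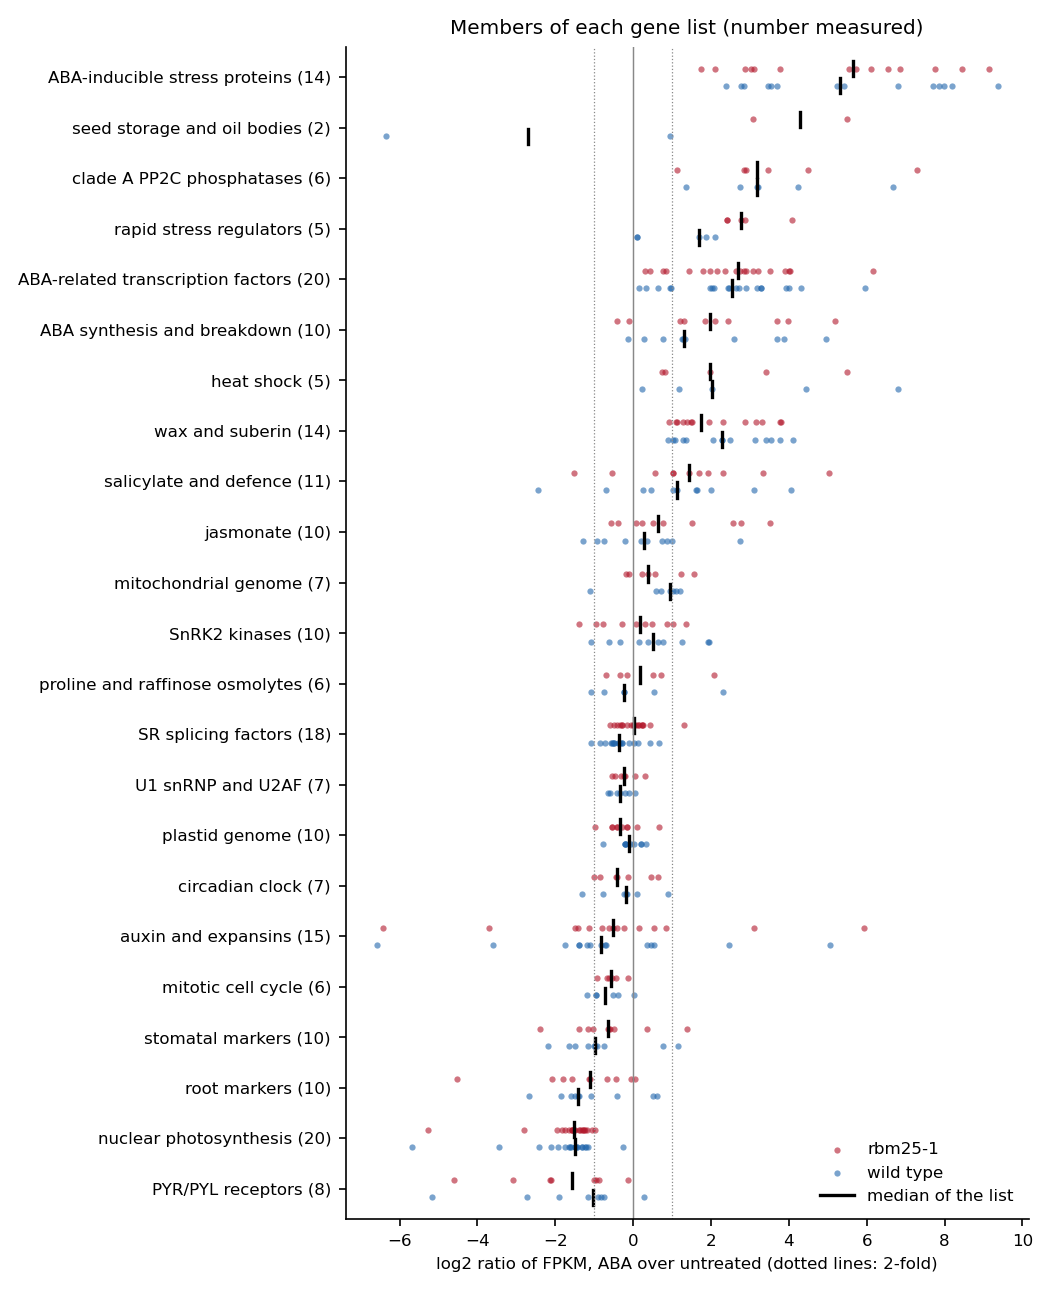
Log2 ratio of FPKM, ABA over untreated (horizontal axis), for each measured member of the gene lists, with rbm25-1 in red above wild type in blue; black bars are list medians, dotted lines mark 2-fold and the number measured stands in brackets. The ABA-inducible list lies far to the right in both genotypes (medians 5.64 and 5.32), the PYR/PYL and photosynthesis lists to the left, and the rapid stress list shows a wider gap between genotypes (2.76 and 1.69). The lists were chosen with earlier results of these data known.

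Among the gene lists examined, the photosynthesis list had the most lowered members. In rbm25-1, 19 of 20 measured members were lowered, as were 19 of 20 in wild type, with medians of -1.51 and -1.5. Their summed level was 26052 FPKM with ABA and 68851 FPKM untreated in rbm25-1, against 19732 and 54221 FPKM in wild type. RBCS1B, a small subunit of Rubisco, had 12.8 and 495 FPKM in rbm25-1, against 12.1 and 617 FPKM in wild type. RBCS2B had log2 ratios of -2.80 and -3.45, RCA (Rubisco activase) of -1.97 and -2.42, and LHCB5 of -1.82 and -1.48. The RBCS1B, RBCS2B and RBCS3B genes are near-identical copies, and so are the LHCB1 genes, so the split of reads within each family is uncertain. LHCB1.1, an antenna protein of photosystem II, had 265 and 829.7 FPKM in rbm25-1, against 129 and 155 FPKM in wild type. That gives log2 ratios of -1.65 and -0.26, while LHCB1.2 (-1.39 and -1.17) and LHCB1.3 (-1.31 and -1.31) stood closer together.

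EXPA8, an expansin that loosens cell walls, had 0.767 FPKM with ABA and 65.4 FPKM untreated in rbm25-1, against 0.669 and 64.2 FPKM in wild type, the lowest ratio in rbm25-1 (log2 ratio -6.41). AT4G38860, a SAUR gene induced by auxin, had 1.88 and 88.9 FPKM, against 2.18 and 79.1 FPKM. EXPA1 had log2 ratios of -3.69 and -3.61. In the auxin and expansin list 5 of 15 were lowered in rbm25-1 and 7 in wild type, while GH3.3 and GH3.5, enzymes that conjugate auxin to amino acids, were raised (5.92 and 3.10 in rbm25-1, 5.07 and 2.46 in wild type). None of 6 mitotic genes was lowered 2-fold in rbm25-1 and 1 was in wild type, with CYCB1;1 at log2 ratios of -0.93 and -0.95, KNOLLE at -0.67 and -0.51, CYCB1;2 at -0.62 and -1.18 and CDKB2;1 at -0.54 and -0.95.

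The rest of the 10 steepest falls in rbm25-1 were mostly shared with wild type. AT1G06830, a glutaredoxin, had 0.581 and 42.8 FPKM in rbm25-1, against 0.467 and 31.5 FPKM in wild type, but its wild-type response had q = 0.261 in the authors' deposited table. RL4, a RADIALIS-like MYB protein, had 2.5 and 91.7 FPKM, against 2.76 and 110.3 FPKM. AT3G23880, AT5G63180, ST4B (a sulfotransferase) and AT5G46890 had log2 ratios between -5.11 and -4.83 in rbm25-1 and between -5.82 and -4.09 in wild type. AT3G51642 was the exception, at 2.66 FPKM with ABA and 97.7 FPKM untreated in rbm25-1, against 6.75 and 2.55 FPKM in wild type. It was high in a single group of the 4, untreated rbm25-1, and no value per sample shows how many of its libraries carry it. The remaining genes of the 10 steepest rises were shared too. AT1G09500 had log2 ratios of 6.99 and 6.71, AT2G37870, a lipid-transfer-like protein, of 6.6 and 7.57, and the sugar transporter gene SWEET4 of 6.59 and 6.18. The listed locus of AT1G09500 spans 79570 bases, and its level with ABA was 116 FPKM in rbm25-1 and 263 FPKM in wild type.

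The difference between the responses, the rbm25-1 log2 ratio minus the wild-type one, was taken over the 16733 loci with all 4 values at least 1 FPKM. It was within 0.5 in 84.5% of them and within 1 in 98.5%. It was 1 or more in 123 loci (0.735%) and -1 or less in 127 loci (0.759%). In 92 of the 123 and in 92 of the 127 the genotypes were further apart with ABA than untreated. In the other 31 and 35 they were further apart untreated, so that the difference in response came with unlike starting levels. In the authors' deposited tables, 47 of the 123 had q under 0.05 between the genotypes with ABA only, 12 untreated only, 54 in both and 10 in neither. Of the 127 lower ones the counts were 57, 15, 35 and 20. These loci were picked on the same 4 group values, so a gap between the genotypes in at least 1 state was built into the choice. No share over all loci stands beside these counts, and they are no separate evidence.

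The 5 rapid stress regulators were listed with earlier results of these data known, and CAF1a and STZ also head the ranked differences. Their sums and medians therefore describe the chosen genes and are no separate evidence. The genes started at unlike levels, with summed values of 206 FPKM with ABA and 25.2 FPKM untreated in rbm25-1, against 224 and 112 FPKM in wild type. All 5 were raised in rbm25-1 and 3 in wild type, with medians of 2.76 and 1.69. CAF1a, a deadenylase subunit that shortens poly(A) tails, had 40.1 FPKM with ABA and 7.48 FPKM untreated in rbm25-1, against 62.0 and 57.9 FPKM in wild type. STZ, a zinc-finger repressor also called ZAT10, had 90.8 and 5.34 FPKM, against 74.5 and 20.3 FPKM. Untreated rbm25-1 thus held 12.9% of the wild-type CAF1a level and 26.3% of the STZ level (q = 0.000132 for each in the authors' deposited table), and with ABA 64.6% and 122%.

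DIC2, a mitochondrial dicarboxylate carrier, had 10.4 and 1.41 FPKM in rbm25-1, against 13.9 and 13 FPKM in wild type. CAF1b had log2 ratios of 2.76 and 2.1, and ZAT12 of 2.41 and 1.69, the last with q = 0.687 between the untreated genotypes in the authors' deposited table. RTFL12, a small DEVIL-type peptide gene, followed the same pattern, at 109 and 14.7 FPKM in rbm25-1 against 105 and 50.4 FPKM in wild type, and so did AT4G27280, an EF-hand calcium-binding protein, at 86.4 and 19.2 FPKM against 83.4 and 49.4 FPKM. In STZ, RTFL12 and AT4G27280 the sprayed genotypes stood close together and the untreated mutant was the lowest group.

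LOX2, the plastid lipoxygenase at the start of the pathway, had 75.9 FPKM with ABA and 11.1 FPKM untreated in rbm25-1, against 32.8 and 18.1 FPKM in wild type. AOS, the allene oxide synthase of the next step, had 117 and 40.9 FPKM, against 69.8 and 60.4 FPKM. Both were lower than wild type in untreated rbm25-1 and higher in sprayed rbm25-1, each with q = 0.000132 in the authors' deposited tables. OPR3, the reductase of a later step, was below wild type in both states, at 14.7 and 8.66 FPKM in rbm25-1 against 18.3 and 14.2 FPKM in wild type. Of 10 measured jasmonate genes, 4 were raised in rbm25-1 and 1 in wild type, where JAZ9 was lowered. The median log2 ratios of the list were 0.63 and 0.29. Over all loci, 11.8% were raised in rbm25-1 and 11.7% in wild type. LOX2 and AOS are among the 10 highest differences, and the list was chosen with earlier results of these data known. Its counts and medians are therefore no separate evidence. JAZ1, a repressor of the pathway, had log2 ratios of 3.52 and 2.74. JAZ5 had 1.71 and 0.291 FPKM, against 1.22 and 0.610 FPKM, a difference of 1.56 on very low values. PDF1.2A, a defensin, had 25.7 and 21.9 FPKM, against 10.2 and 19.5 FPKM.

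Salicylate and defence genes had higher summed levels in rbm25-1 in both states. Their summed level over 11 members was 387 FPKM with ABA and 200.4 FPKM untreated in rbm25-1, against 178 and 81.4 FPKM in wild type. In rbm25-1 8 were raised and 1 lowered, and in wild type 7 and 1, with medians of 1.45 and 1.13. The lowered member was LURP1, at 47.1 and 135 FPKM in rbm25-1, against 6.45 and 35.2 FPKM in wild type. It held most of the untreated rbm25-1 sum. With ABA every measured member was higher in rbm25-1 than in wild type. Untreated, CBP60G was lower in rbm25-1 and the others were higher. WRKY33 was nearly equal untreated, at 9.58 and 8.99 FPKM (q = 0.646 in the authors' deposited table). PAD3, the last enzyme of camalexin synthesis, had 114 and 3.51 FPKM, against 30.3 and 1.83 FPKM. ICS1, the isochorismate synthase of salicylate synthesis, had 14.4 and 5.27 FPKM, against 5.69 and 4.74 FPKM, and log2 ratios of 1.45 and 0.26. WRKY33 had log2 ratios of 3.33 and 3.10, CBP60G of 2.3 and 1.62, and PR2 of 1.93 and 1.13. The locus that merges PR1 (AT2G14610) with AT2G14580 did not follow ABA in rbm25-1, at 254.5 and 241.5 FPKM, against 26.9 and 41.3 FPKM in wild type.

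Among the remaining genes with the highest differences, ESP had 26.6 FPKM with ABA and 8.40 FPKM untreated in rbm25-1, against 6.86 and 8.45 FPKM in wild type. ESP is the epithiospecifier protein that steers glucosinolate breakdown, and the sprayed mutant was the 1 high group of the 4. AT1G66100, a thionin-like defence peptide, fell less in rbm25-1, at 26.5 and 113.7 FPKM against 12.4 and 151.9 FPKM. AT2G28790, an osmotin-like protein, had 29.4 and 21.3 FPKM, against 15.1 and 30 FPKM. AT1G07920, a copy of translation elongation factor 1-alpha, had 48.2 and 31.1 FPKM, against 24.2 and 41.5 FPKM. It shares nearly all its coding sequence with other copies, so its own level is uncertain.

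**Figure D3:**
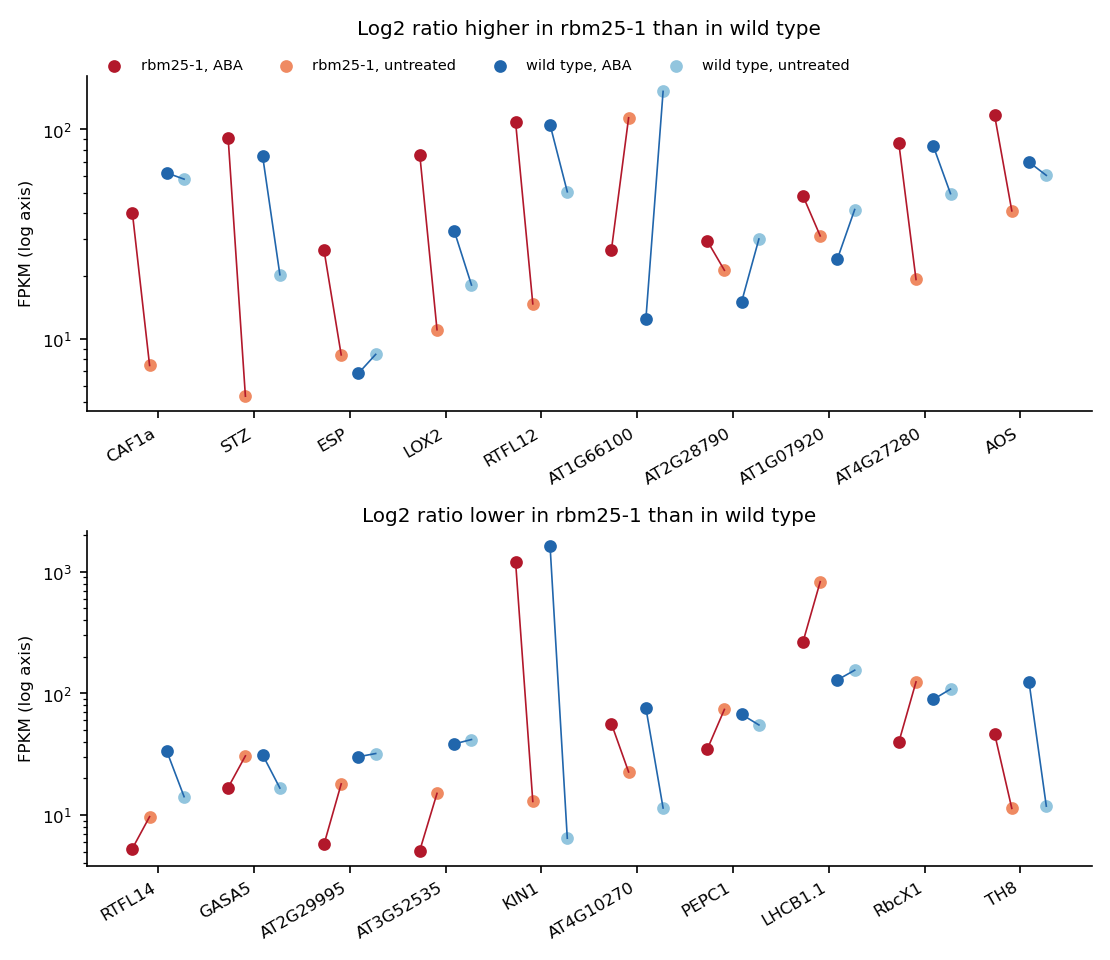
FPKM on a log axis in the 4 groups, rbm25-1 with ABA, rbm25-1 untreated, wild type with ABA and wild type untreated from left to right, for the 10 genes with the highest (upper panel) and the 10 with the lowest (lower panel) difference of responses among loci with at least 5 FPKM in all groups; lines join the groups of 1 genotype. For CAF1a and STZ the untreated mutant lies apart (7.48 and 5.34 FPKM), and for ESP the sprayed mutant does (26.6 FPKM).

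At the other end, GASA5, a small gibberellin-regulated peptide, was lower with ABA than untreated in rbm25-1 and higher with ABA in wild type, by less than 2-fold in each, at 16.9 and 30.7 FPKM against 31.3 and 16.7 FPKM. Each of the 3 authors' comparisons gave it q = 0.000132. PEPC1, a phosphoethanolamine and phosphocholine phosphatase, had 34.6 and 73.9 FPKM, against 67.3 and 55.1 FPKM. RbcX1, a chaperone in Rubisco assembly, had 39.7 and 125 FPKM, against 89.4 and 109 FPKM. The sprayed mutant was the lowest of the 4 groups in PEPC1 and RbcX1, and wild type with ABA was above untreated wild type in GASA5 and PEPC1 and below it in RbcX1.

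TH8, an h-type thioredoxin, was raised in both, but at 46.7 and 11.4 FPKM in rbm25-1 against 124 and 11.8 FPKM in wild type. AT4G10270, a wound-responsive protein, had 56.6 and 22.6 FPKM, against 76.2 and 11.4 FPKM. AT2G29995 had 5.73 and 18.1 FPKM, against 30.2 and 32.1 FPKM, and the long non-coding RNA AT3G52535 had 5.11 and 15.1 FPKM, against 38.5 and 41.8 FPKM. AT2G29995 and AT3G52535 were below wild type already without ABA, with log2 ratios of -1.66 and -1.56 in rbm25-1 and of -0.09 and -0.12 in wild type. RTFL14, another DEVIL-type peptide, had 5.30 and 9.70 FPKM, against 33.4 and 14.2 FPKM, but none of the authors' comparisons gave it a q under 0.05 (0.21 was the lowest).

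Large differences were more frequent among genes with few introns. Of 2062 genes without an annotated intron, 48 (2.33%) had a difference of 1 or more and 28 (1.36%) one of -1 or less. Of 2733 genes with 10 introns or more, 2 (0.0732%) and 4 (0.146%) did. Genes without introns were also the ones that responded most, with 18.1% raised and 17% lowered in rbm25-1 and 17.1% and 18% in wild type, against 7.79% and 3.22% in rbm25-1 and 6.84% and 3.81% in wild type for genes with 10 introns or more.

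Transcripts of the splicing machinery itself had slightly higher ratios in rbm25-1. Of 18 measured SR genes, which encode the serine- and arginine-rich splicing factors, 17 had a higher log2 ratio in rbm25-1 than in wild type. The medians were 0.01 and -0.37, against a median difference of 0.03 over all loci, and centred on the medians of all loci 16 of the 18 were higher. SR30 was the 1 gene raised 2-fold, at 89.0 and 35.9 FPKM in rbm25-1 against 57.4 and 36.2 FPKM in wild type. SR34 had 77.6 and 116 FPKM, against 57.2 and 122 FPKM, and was the 1 lowered 2-fold in wild type. SCL30 had log2 ratios of -0.48 and -0.73 and RS31A of 0.42 and 0.44. No SR gene differed by 1 log2 unit. Of 7 U1 snRNP and U2AF genes none passed 2-fold in either genotype, and 6 had the higher ratio in rbm25-1, with U2AF35B at -0.53 and -0.59, U2AF35A at -0.45 and -0.65, U2AF65A at -0.32 and -0.41 and PRP39 at 0.31 and -0.22.

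In splicing, PSI was at least 10 percentage points higher with ABA in 453 of 7547 events in rbm25-1 (6.00%) and at least 10 points lower in 346 (4.58%). In wild type, 361 events were higher (4.78%) and 313 lower (4.15%). The same direction past 10 points was shared by 145 higher and 108 lower events, and 39 events went opposite ways. Shared events are thus 32% of the higher ones of rbm25-1 and 40.2% of those of wild type, a smaller share than for gene levels, and across events the PSI differences correlated with r = 0.39. Events of 1 gene can share junctions, and the reads behind each PSI are not given, so how much of these counts is counting error is unknown.

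**Figure D4:**
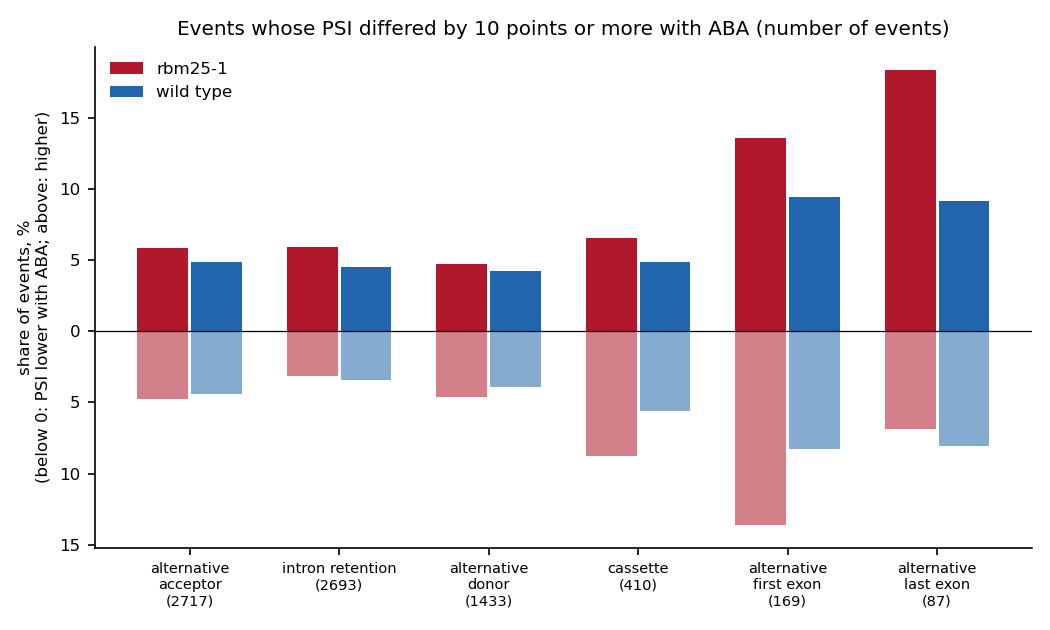
Share of splicing events of each type (number in brackets) whose PSI was at least 10 points higher (bars above 0) or lower (bars below 0, paler) with ABA than untreated, with rbm25-1 in red left of wild type in blue. Retained introns were higher in 5.90% and lower in 3.12% in rbm25-1, against 4.49% and 3.42% in wild type.

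Retained introns were more often higher than lower with ABA in rbm25-1, and so were all events. Of 2693 introns, 159 had a higher and 84 a lower PSI with ABA in rbm25-1, against 121 and 92 in wild type. The rbm25-1 shares were 5.90% and 3.12%, against 6.00% and 4.58% over all events. Rises were thus no more frequent in introns than over all events, and falls were less frequent. The mean difference was 0.89 points in rbm25-1 and 0.07 points in wild type, on mean PSI values of 26.8% with ABA and 25.9% untreated in rbm25-1, against 25.6% and 25.5% in wild type. Over all events the mean difference was 0.38 points in rbm25-1 and 0.07 points in wild type. The 159 introns had a median length of 128.5 bases, against 116.5 for the 84 and 106 over all introns. Wild type showed the same order, with medians of 130 bases for its higher introns and 114 for its lower ones. Of those whose gene had a ratio, 14 of 137 lay in genes raised in rbm25-1 (10.2%) and 15 in genes lowered (10.9%), against 8.39% and 8.80% over all introns.

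Cassette exons were more often lower than higher with ABA in rbm25-1, with 27 higher and 36 lower of 410. In wild type the counts were nearly even, with 20 higher and 23 lower. Their mean PSI was 67.1% with ABA and 67.9% untreated in rbm25-1, against 73.5% and 73.9% in wild type. The gap between genotypes thus exceeded the change with ABA. Alternative first exons were the type in which the responses were most alike among those with over 100 events (r = 0.62 across 169 events), with 23 higher and 23 lower in rbm25-1 and 16 and 14 in wild type.

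The largest fall in PSI among the ranked events was that of an intron of SULTR1;2 (AT1G78000), the main sulfate uptake transporter of roots. PSI was 6.19% with ABA and 60.3% untreated in rbm25-1, against 12.7% and 51.4% in wild type (unadjusted p = 0.000915 for the wild-type response in the authors' deposited table). The intron, printed with its terminal GT and AG in capitals because it carries the largest fall and lies between coding exons, spans chr1:29332622-29332733 on the plus strand.
SULTR1;2 intron: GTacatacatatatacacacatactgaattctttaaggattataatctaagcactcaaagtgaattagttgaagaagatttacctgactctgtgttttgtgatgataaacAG

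The fall was thus common to both genotypes. So were those of a first exon of AT4G21910, a MATE-type transporter (26.7% and 72.7% in rbm25-1, 29.9% and 66.7% in wild type), of a donor site of the non-coding RNA AT3G46668 (4.55% and 50%, against 17.39% and 75%) and of a donor site of AT1G69840 (23.7% and 63.3%, against 27.6% and 68.3%). A donor site of MSL3, a mechanosensitive channel of plastids, differed more in rbm25-1, at 52.6% and 90% against 54.3% and 60%. Between the genotypes its unadjusted p was 0.723 with ABA and 0.342 untreated in the authors' deposited tables.

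The largest rise was an unannotated intron of DRH1 (AT3G01540), a DEAD-box RNA helicase, at chr3:215135-215400 on the minus strand. Its PSI was 68.0% with ABA and 19.7% untreated in rbm25-1, against 36.4% and 16.7% in wild type. With ABA the genotypes stood apart by more than 30 points, with an unadjusted p of 0.0903 in the authors' deposited table. An intron of AT1G60990 had 78.6% and 38.3% in rbm25-1, against 57.1% and 30.4% in wild type. An acceptor of the non-coding RNA AT4G37432 had 47.4% and 8.33%, against 29.2% and 9.52% (unadjusted p = 0.0137 between the sprayed genotypes in the authors' deposited table). A first exon of AT1G67900 had 93.3% and 54.5%, against 61.9% and 45.8%. In these 4 the direction was the same in wild type and the step smaller. The donor of AT5G17670 had 61.5% and 25.9%, against 36.4% and 27.5%. Between the genotypes its unadjusted p was 0.305 with ABA and 0.856 untreated in the authors' deposited tables. AT1G77800 entered both ends of the ranking, since 2 acceptors 3 bases apart gave mirror-image values, 83.3% and 45.5% for the one and 16.7% and 54.5% for the other in rbm25-1 of the same choice.

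**Figure D5:**
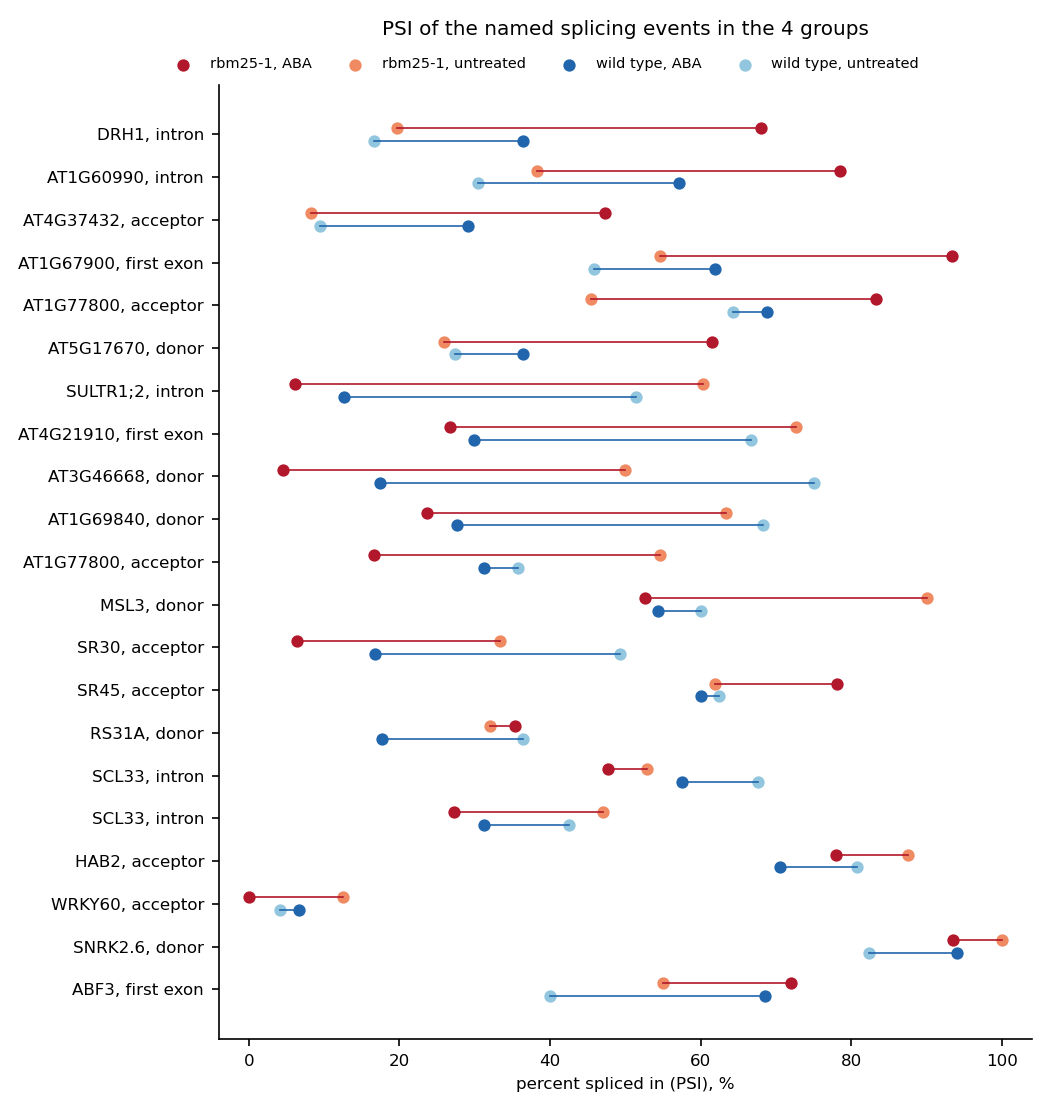
PSI (horizontal axis, %) of the named splicing events in rbm25-1 with ABA and untreated (dark and light red, upper line of each pair) and in wild type with ABA and untreated (dark and light blue, lower line). The SULTR1;2 intron moves left with ABA in both genotypes (6.19% and 60.3% in rbm25-1), the DRH1 intron moves right and further in rbm25-1 (68.0% and 19.7%), and the SR45 acceptor moves in rbm25-1 (78.1% and 61.9%) while wild type holds near 60%.

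Of 43 events in 16 SR genes, 5 passed 10 points in either genotype, and over all events 15.6% did, so these genes did not exceed the general share. In SR30, a choice between 2 acceptors followed ABA in both genotypes: PSI of the nearer site was 6.41% with ABA and 33.3% untreated in rbm25-1, against 16.8% and 49.3% in wild type. The genotypes differed at both states (unadjusted p = 0.00653 with ABA and 0.00543 untreated in the authors' deposited tables). The intron to the nearer acceptor spans chr1:2943565-2944168 and that to the farther one chr1:2943227-2944168 on the minus strand. Their last bases and the first of the exon, with the terminal AG in capitals, show the sites compared.
SR30 nearer acceptor: ttgcgttgtttgttttctAGatc
SR30 farther acceptor: ggtttttggtcttgctgcAGgtc

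In SR45, whose 2 known protein isoforms differ by a short peptide, the 2 acceptors lie 21 bases apart at chr1:5677356-5677376 on the minus strand. PSI of the form that includes this stretch was 78.1% with ABA and 61.9% untreated in rbm25-1, against 60% and 62.5% in wild type. Sprayed rbm25-1 was the 1 group apart, with an unadjusted p of 0.0719 between the sprayed genotypes in the authors' deposited table. The stretch lies within a coding exon and its length is a multiple of 3, and it is shown in capitals because it is what the longer isoform gains.
SR45 alternative stretch: CATCTCCTCAACGGAAAACAG

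A donor of RS31A had 35.3% and 32.1% in rbm25-1, against 17.65% and 36.4% in wild type. An intron of SCL33 had 27.3% and 47.1%, against 31.2% and 42.5%, and a longer, unannotated one had 47.8% and 52.9%, against 57.6% and 67.6%. PSI of the SCL33 introns was thus lower with ABA in both genotypes, by under 10 points for the longer one in rbm25-1. PSI of the RS31A donor was lower with ABA in wild type alone. For the wild-type responses the authors' deposited table gave unadjusted p of 0.270 and 0.775 for the SCL33 introns and 0.0920 for RS31A. Between the sprayed genotypes RS31A had an unadjusted p of 0.0274 in theirs.

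Of 27 events in 17 genes of ABA signalling, 4 passed 10 points in either genotype and 2 in rbm25-1, against 15.6% and 10.6% over all events, so these counts are near or below the general share. A first exon of ABF3, the bZIP factor, had 72.0% and 55% in rbm25-1, against 68.5% and 40% in wild type. An acceptor of WRKY60 had 0% and 12.5%, against 6.67% and 4.17%, and a donor of SNRK2.6 had 93.5% and 100%, against 94.0% and 82.4%. An acceptor of HAB2 had 78% and 87.5%, against 70.6% and 80.8%. With ABA the genotypes were within 8 points of each other in all 4.

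HAB1 had no event listed for both rbm25-1 groups, so its response cannot be given. With ABA, PSI of its intron at chr1:27392394-27392516 on the plus strand was 44.2% in rbm25-1 and 15.1% in wild type (unadjusted p = 0.00350 in the authors' deposited table), and it was listed at 0% in untreated wild type. The intron lies between coding exons and is printed because retaining it is the known switch between the forms of this phosphatase.
HAB1 intron: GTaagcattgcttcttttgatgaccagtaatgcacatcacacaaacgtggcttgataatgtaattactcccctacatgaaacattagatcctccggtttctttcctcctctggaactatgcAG

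Markers of organs were read beside these results. The summed FPKM of 10 measured root markers was 82.1 with ABA and 202 untreated in rbm25-1, against 89.7 and 216 in wild type, with 6 lowered in rbm25-1 and 7 in wild type. The lowered ones include the Casparian strip gene CASP1 (log2 ratios -1.81 and -1.43) and the phosphate transporter PHT1;1 (-1.57 and -1.5). CASP4 had 0.187 and 4.31 FPKM in rbm25-1, against 1.06 and 6.79 FPKM in wild type. Stomatal markers summed to 39.7 and 61.9 FPKM in rbm25-1, against 31.7 and 57.2 FPKM, with 4 of 10 lowered in rbm25-1 and 5 in wild type. MYB60, HT1 and EPF1 had log2 ratios of -2.40, -1.40 and -1.16 in rbm25-1, and the guard-cell channel KAT1 had 1.38, all within 0.5 of wild type. The root markers PLT1, HKT1, IRT1 and SMB and the stomatal marker BASL are listed untreated only, so no ratio exists for them. The part of these markers in the falls listed above was not tested.

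Heat shock genes were raised in 3 of 5 measured members in rbm25-1 and 4 in wild type. HSP17.4 had 35.9 and 0.803 FPKM in rbm25-1, against 31.7 and 0.284 FPKM, HSP18.2 had 22.3 and 2.11 FPKM, against 17.59 and 0.809 FPKM. Both log2 ratios were lower in rbm25-1 by more than 1, and the untreated mutant stood above untreated wild type in both, on low values. In the authors' deposited tables the untreated genotypes had q = 0.224 for HSP17.4 and 0.414 for HSP18.2. The wild-type response of HSP18.2 had q = 0.203, and that of HSP17.4 had q = 0.00988. HSP70 had log2 ratios of 1.97 and 2.03, and HSP90.1 of 0.82 and 1.17. Among 7 clock genes, 1 was lowered in each genotype, PRR7 in rbm25-1 (-1, and -0.77 in wild type) and GI in wild type (-0.84 in rbm25-1 and -1.32 in wild type), while ELF4 had 0.65 and 0.88 and PRR5 had 0.47 and 0.11. Over all loci, 11.2% were lowered in rbm25-1 and 11.5% in wild type.

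Of 10 plastid-encoded loci none passed 2-fold in either genotype, and of 7 mitochondrial ones 2 were raised in rbm25-1, and 3 were raised and 1 lowered in wild type, with medians of -0.35 and -0.11 for the plastid list and of 0.38 and 0.96 for the mitochondrial one. ATCG00070, ATCG00440, ATCG00210 and ATCG00430 had log2 ratios of -0.99, 0.66, -0.55 and -0.53 in rbm25-1. ATMG00250, ATMG00160, ATMG01220 and ATMG01360 had 1.57, 1.23, 0.56 and 0.38. ATMG00670 and ATMG00690 differed by 1.35 and -1.06 between the responses at levels under 3 FPKM. Polyadenylated RNA was sequenced, so these values cover only the organelle RNA that came through that selection.

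Finally, 3 loci stood at 0 in an rbm25-1 group. SMP1 (AT3G12960), a seed maturation protein, had 6.69 FPKM with ABA and was listed at 0 untreated in rbm25-1, against 4.89 and 0.884 FPKM in wild type. AT1G77880 was listed at 0 with ABA and had 0.999 FPKM untreated, against 1.33 and 1.6 FPKM, and the microRNA gene MIR158a was listed at 0 with ABA and had 0.506 FPKM untreated, against 0.900 and 0.592 FPKM. No fold is given for them.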

How the data were processed

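RNA-seq of 12 samples in 4 groups of 3 was deposited as 3 gene tables and 3 splicing tables, each comparing 2 groups with 1 value per group. Per the submitters' processing notes, Trimmomatic 0.32, TopHat2 2.0.13, Cufflinks 2.2.1, Cuffdiff and the TAIR10 build were used. The gene tables hold group FPKM, log2 fold changes and p-values with q-values, per the file headers. The splicing tables hold PSI in percent, a difference score in points and p-values, as deposited by the authors; the splicing program is not given in the sources used here, and PSI was read as the share of the inclusion form. All columns of values were matched to a group (0 were not).

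The rbm25-1 group values were joined by gene and position or by event. Repeated loci (50 untreated, 44 with ABA) and 28 damaged events per table were left out. The wild-type values shared between tables were equal at all 19109 (untreated) and 19039 (ABA) loci, so the tables share a scale. Ratios needed 1 FPKM in the higher group and no 0, without a pseudocount, and differences needed 1 FPKM in all 4 groups. No value per sample exists, so no replicate error, depth or test could be had, and calls are folds or points only. The functions were tested on simulated data. Of 265 list members written, 5 whose ID and symbol did not match were dropped. Named genes were the 10 highest and 10 lowest ratios (higher value at least 10 FPKM, lower at least 0.5), the 10 highest and lowest differences (all values at least 5 FPKM), up to 4 members per list with the largest ratios, members differing by 1 or more, the 6 highest and lowest events among genes of at least 5 FPKM and SR events past 10 points. ULP1D, BGLU24, M17, the merged loci, the genes listed in 1 table, the events of ABA signalling genes and other list members were chosen after their values were seen. SMP1, AT1G77880 and MIR158a are the 3 loci at 0. The members and lists were chosen with earlier results of these data known. Alternatives tried were other folds, points, pseudocounts, filters and centring. Sequences came from RefSeq's TAIR10.1, where 95.8% of 2684 introns of the events begin with GT and end with AG. Python 3.11.15, pandas 2.3.3, numpy 2.4.6 and matplotlib 3.10.9 were used.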

Additional observations from a re-analysis of the deposited data

How the results depend on the processing

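No paired analysis was possible because each group has a single deposited value with no sample columns behind it, and for the same reason no replicate could be left out and no test made. The counts depend on the fold or points chosen, in the same way in both genotypes. At 1.5-fold, 3556 loci were raised and 3756 lowered in rbm25-1, against 3537 and 4015 in wild type. At 4-fold the counts were 796 and 486 in rbm25-1, against 801 and 444. Differences of 1 or more fell to 47 higher and 42 lower loci with 5 FPKM required in all groups, and to 73 and 65 with a pseudocount of 1. At 5 points, 1173 events were higher and 949 lower in rbm25-1, against 981 and 906 in wild type, and at 20 points 91 and 64, against 54 and 52. With PSI strictly between 0 and 100 in all groups, 292 and 186 events passed in rbm25-1, against 235 and 197. No value past its threshold changed sign under any setting run, which include keeping only events on the gene named beside them, an alternative chosen after seeing the data. Of the values under their threshold, 8 changed sign when centred on the median of all loci (at most 0.03 in size) and 8 with a pseudocount of 1 (at most 0.31). Centring on the median also gave 103 higher and 153 lower differences. Centred on the median of all loci, 519 of 524 gene values stayed on their side of the threshold: COR15A (-1.04), AT2G37870 (-1.02), PYL8 (-1.02) and CASP5 (-1.01) passed it and PRR7 (-0.99) left it. With a pseudocount of 1, 498 of 524 stayed, 24 no longer passed and 2 newly passed. The depth behind each value is unknown, so low FPKM and PSI of weakly expressed genes are the least certain.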

Other observations

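Apart from the groups described above, 4 loci crossed 2-fold in opposite directions in the genotypes, among them AT3G51642. CRA1, a seed storage globulin, had 3.80 FPKM with ABA and 0.453 FPKM untreated in rbm25-1, against 0.0240 and 1.95 FPKM in wild type. M17, a late embryogenesis abundant protein, had 2.23 and 0.815 FPKM, against 0.0492 and 1.18 FPKM. A merged plastid locus of 9 genes, ATCG00120 to ATCG00220, had 11.97 and 389 FPKM, against 246 and 11.9 FPKM. Of the seed list, OLEO2, an oil-body protein, had 5.16 and 0.115 FPKM, against 1.77 and 0.910 FPKM, and OLEO1, listed with ABA only, had 0.948 FPKM in rbm25-1 and was listed at 0 in wild type. The 2 measured seed members together stood at 8.97 and 0.568 FPKM in rbm25-1, against 1.79 and 2.86 FPKM in wild type. No value per sample shows how many libraries carry these levels.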
